A study of Mus musculus with 4 samples.

Results

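Gene expression in cerebellar granule cells of the early postnatal mouse was set against that of undifferentiated mouse embryonic stem (ES) cells. The comparison used the 2 arrays so labelled, of 4 arrays in the study, and it covered 18193 genes. The study compared ES cells, ES-derived cells sorted for a green fluorescent protein reporter of HB9 (a motor neuron gene), sorted Sox1 neural stem cells and granule cells, with 1 Affymetrix array for each. The granule cells were taken on postnatal day 6. The labels give no isolation method for them, and neither the number of animals that gave RNA nor their strain and sex. All samples carry the same culture text, which describes HB9 reporter ES cells grown on embryonic mouse fibroblasts arrested with mitomycin, in 15% serum and leukemia inhibitory factor (LIF) at 1000 U/ml. No agent is given for the granule cells. With a single array on each side there is no replicate error, so the differences below are sizes between these arrays and carry no p-value.

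Granule cells are small excitatory neurons and the most numerous neurons of the brain. In the first postnatal weeks their Atoh1-expressing precursors divide in the external granule layer under Sonic hedgehog from Purkinje cells, then leave the cell cycle, extend parallel fibres and migrate inward along Bergmann glia. ES cells divide rapidly, are held in an undifferentiated state by a network of transcription factors around Pou5f1, Sox2 and Nanog, and adhere to each other as an epithelium through E-cadherin.

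The deposited values are linear signals. The low level was set at a signal of 78.8, the average of the 4 arrays' medians on the log2 scale, and lower values were set to it before differences were taken. A gene was detected on an array from a signal of 157.5. A gene counted as called when the array with more signal detected it and the log2 difference reached 2 units, which is 4-fold. If the weaker signal did not exceed the low level, the fold is only a bound and is worded "at least". If it exceeded the low level without reaching detection, the signals stand alone with no fold. The median signal was 86.2 on the ES array and 90.7 on the granule array. The 3' to 5' signal ratio of the actin control was 4.55 on the ES array and 2.29 on the granule array, and that of the Gapdh control was 1.99 and 2.70. The 18 hybridisation control probe sets, which read spiked-in bacterial transcripts, were on average 0.66 log2 units lower on the granule array, with an SD of 0.063 between them. The 12 reference genes had a median difference of -0.51. Differences of about that size therefore cannot be told apart from the scaling of the arrays.

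The arrays differed widely. Of 10970 genes detected on either array, 7968 were detected on both, 1452 on the ES array only and 1550 on the granule array only. On the granule array 1243 genes were called higher (6.83% of genes measured) and 907 were called lower (4.99%), so 57.8% of the calls were higher. Centring the arrays on the 12 reference genes, of which 1 was itself called lower, moved that share to 75.7%, with 1803 genes higher and 580 lower. Centring on the 7968 genes detected on both arrays moved it to 61.5%, with 1321 higher and 826 lower. A difference of at least 16-fold was read for 249 higher and 143 lower genes, bounds included, and one of at least 64-fold for 28 and 20. The median difference was 0 over all genes, of which many were at the low level on both arrays, and -0.09 over the genes detected on either.

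Counts within gene lists depended on how the probe sets of a gene were combined. A gene is represented below by its brightest probe set. Taking the mean of the log2 values of all its probe sets instead, dim ones included, changed the leading count of 17 of the 41 lists with a call by over 1.5 times. With all 12 alternatives that keep the 4-fold limit considered, 26 lists had such a change. Where this touches a list described below, the other count stands beside it.

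**Figure D1:**
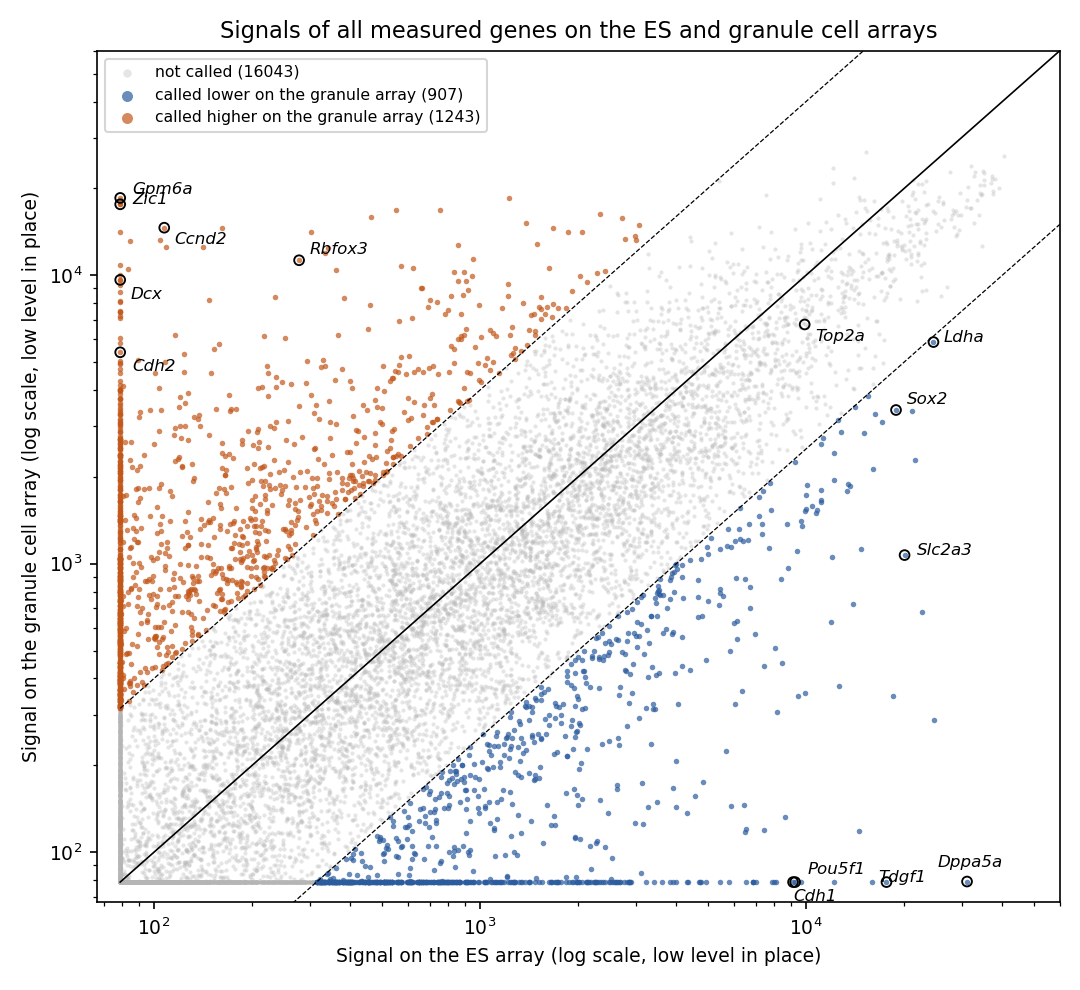
Signals of the 18193 genes on the ES array (x) and the granule cell array (y), both log scales with the low level in place; the solid line marks equal signals and the dashed lines 4-fold. The 1243 genes called higher (orange) lie above the upper dashed line and the 907 called lower (blue) below the other, many of both at the low level of 78.8 on the opposite array.

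Among the 15 largest differences towards granule cells were neuronal membrane and secreted proteins. Gpm6a, a neuronal membrane glycoprotein, had signals of 18534 on the granule array, 37.6 on the ES array, 25.6 on the HB9-GFP array and 1379.8 on the Sox1 array, and was at least 235-fold higher in granule than in ES cells. Its relative Gpm6b was at 13271.7 against 104.5. Reln, which encodes the secreted guidance protein reelin made by granule cells, was at 13182.7 against 84.5. Cadps2, a factor for the release of dense-core vesicles, was at 10005 against 43 and at least 127-fold higher. Dcx, the microtubule protein of migrating neurons, was at 9634.5 against 2.2 and at least 122-fold higher by its brightest probe set. The detected probe sets of Dcx ranged from 1.11 to 6.93 log2 units. The others of the 15 were Ptn, Fabp7 and Sparcl1, which glia also make, the transcription factors Zic1, Nfia, Nfix, Insm1 and Zfp521, the cyclin Ccnd2, and Ppp1r14c, a phosphatase inhibitor. The detected probe sets of Ptn ranged from 0.65 to 7.83 log2 units.

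The 15 largest differences in the other direction were led by genes of the early embryo. Dppa5a was at 31169.8 on the ES array and 79.1 on the granule array. Tdgf1, the Nodal co-receptor Cripto, was at least 224-fold lower in granule cells, with signals of 17646 and 25. Zfp42, known as Rex1, was at least 202-fold lower, with 15912.5 and 12. Hspb1, a small heat shock protein, was at 14495 and 118.4. The others were Zfp982, Dppa2, Pou5f1, Cdh1, L1td1, Stra8, Fam25c, Slc38a4, Rpl39l, Ifitm1 and Fbxo15, each at least 87.1-fold lower.

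The label of each array was checked against its defining genes. Pou5f1 was at 9255.5 on the ES array and 21.7 on the granule array, and Nanog was at 4685.5 and 4.4. On the other arrays Pou5f1 read 11188 (HB9-GFP) and 514.3 (Sox1), so the array labelled HB9-GFP carried it at the ES level. Sox2, which neural progenitors and glia also express, was detected on all 4 arrays, at 18876.8 (ES), 3410.1 (granule), 16038.3 (HB9-GFP) and 16172.6 (Sox1), and was 5.54-fold lower in granule than in ES cells. Zic1 read 17613.9 on the granule array, 70 on the ES array, 44.3 on the HB9-GFP array and 8468.3 on the Sox1 array. Neurod1, a driver of granule neuron differentiation, read 16889, 752.6, 346.6 and 562.8 in the same order, and stood 22.4-fold above its ES level in granule cells. Atoh1, the determinant of granule precursors, was detected only on the granule array, at 623.3 against 57 (ES), 54.1 (HB9-GFP) and 47 (Sox1). Pou5f1 and Nanog were thus high on the array labelled ES, and Zic1 and Neurod1 on the granule array. Gabra6, which also counts among the defining genes, was undetected on the granule array, as given below.

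**Figure D2:**
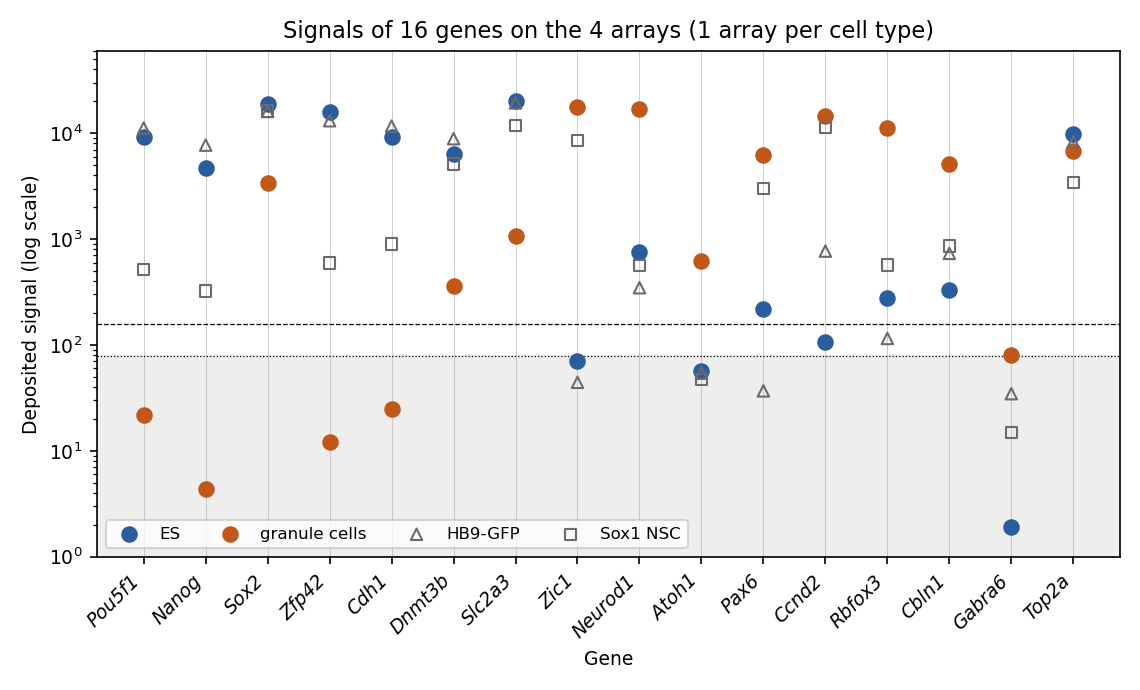
Deposited signals (log scale) of 16 genes on the 4 arrays, 1 point per array; the shaded band lies below the low level of 78.8 and the dashed line marks detection at 157.5. Pou5f1, Nanog, Zfp42 and Cdh1 lay in the shaded band on the granule array and between 4685.5 and 15912.5 on the ES array, while Zic1 and Atoh1 showed the opposite order and Gabra6 was undetected on every array.

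The granule array also carried genes of other cerebellar cells. Astrocyte and Bergmann glia markers were called higher in 14 of 20, with none lower, and their summed signal was 23255 on the ES array and 96645 on the granule array. They included Aqp4, the water channel of astrocyte endfeet, at 8741.8 against 36.6, and Gfap at 2224.6 against 13.4. Where every detected probe set had to reach 4-fold, 9 of the 20 were higher. Of 16 oligodendrocyte lineage markers 11 were higher and none lower, with sums of 4459 and 30717, led by Olig1 at 3541 against 61.9 and Gpr17, a receptor of differentiating oligodendrocytes, at 2693.6 against 3.4. Of 12 Purkinje cell markers 7 were higher and none lower, with sums of 2264 and 16350 and a median of 2.79. With the mean over probe sets 3 were higher and the median was 0.49, and where every detected probe set had to reach 4-fold 4 were higher. Pcp4 was at 3719.9 against 41.8, Calb1 at 2703.5 against 59.3 and Pcp2 at 1954.4 against 10.5. Of 12 markers of GABAergic interneurons 5 were higher and none lower, with sums of 509.5 and 6920, led by Gad1, which makes GABA, at 2507.3 against 33.1. A low level of 1 log2 unit higher left 3 of these higher, and one of 1 unit lower gave 8. Gad1 stands on the Purkinje cell list too, so it is counted as higher on both. Of 17 microglia and macrophage markers 9 were higher and none lower, with sums of 2342 and 12345, and Csf1r, the receptor microglia depend on, was at 4072.5 against 103.6. With the higher low level 5 were higher. In RNA of mixed tissue, fewer cells of a type and less RNA per cell cannot be told apart.

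Markers of other tissues differed from list to list. All 5 red blood cell markers were undetected on both arrays. Of 17 vessel and pericyte markers 1 was higher, Vtn, and 4 were lower, with sums of 17993 on the ES array and 2196 on the granule array. The genes called lower were Slc2a1, which made up most of the ES sum, Abcb1a, a drug efflux pump, at 1928.6 against 21, Tek, an angiopoietin receptor, and Anpep, an aminopeptidase. With the higher low level 2 were lower and none higher. The endothelial genes Cdh5 and Flt1 were undetected on both. Of 13 choroid plexus and ependymal markers none was higher and 1 was lower. Of 24 fibroblast and meningeal markers 6 were higher and 1 was lower, with sums of 18626 on the ES array and 24004 on the granule array. The granule array detected 15 of them and the ES array 8. Among those called higher was Col3a1, a fibrillar collagen, at 2387.6 against 20.6. The gene called lower was Fn1, which encodes fibronectin, at 8058.9 on the ES array and 508.4 on the granule array. Vim, an intermediate filament that many cell types share, was at 8027.8 and 12329.6, so these genes made up most of the ES sum. The collagens Col1a1, Col1a2, Col3a1 and Col6a1 were undetected on the ES array. The culture text, the same for all samples, describes ES cells grown on fibroblasts, and the part of fibroblast RNA on the ES array was not tested. With the mean over probe sets 2 of the 24 markers were higher and 1 lower. Of the 6 higher genes, Igf2, Dcn and Pdgfra also stand on other lists used here. The part of glial, Purkinje cell, interneuron, microglial and fibroblast RNA in the differences below was not tested.

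**Figure D3:**
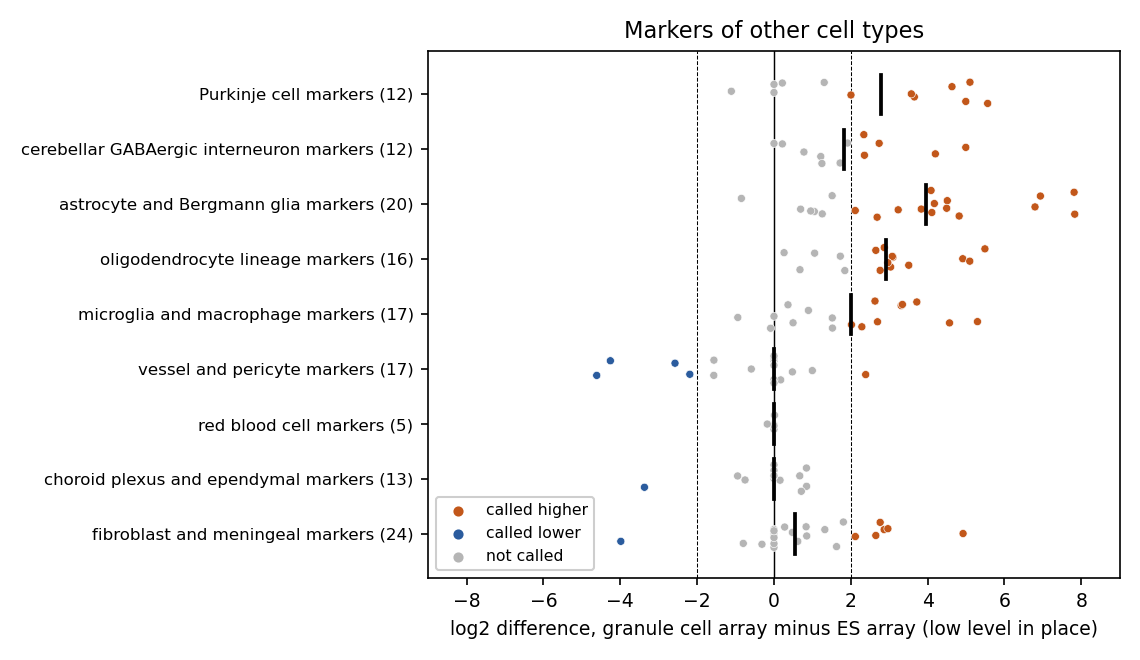
log2 differences, granule array minus ES array, of markers of 9 other cell types, 1 point per gene and a bar at each list's median, with the number of genes measured in brackets; dashed lines mark 4-fold. The medians of the glial, Purkinje cell, interneuron and microglial lists lay between 1.82 and 3.96, those of the vessel, red blood cell and choroid plexus lists at 0.

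The pluripotency network was called lower almost in full. Of 18 transcription factors 17 were lower and none higher, with a median difference of -4.22 and a range from -7.66 to -0.49. With the mean over probe sets 13 were lower, and after centring on the reference genes 15. Zfp42, Pou5f1, Sall4, Klf5, Nanog and Esrrb had the largest differences. Sall4, a zinc finger partner of Pou5f1, was at least 83.4-fold lower, with signals of 6565.2 and 19.5. Esrrb, a nuclear receptor of the naive state, was at least 43.3-fold lower. Klf5 was at 7405 and 119.7. Zfp281 was the member not called, at 4356.9 and 3107. All 18 were detected on the ES array and 5 on the granule array. Early embryo and ES marker genes followed, with 18 of 23 lower, none higher and a median of -4.98. They included L1td1, an RNA-binding protein of ES cells, and Dnmt3l, the cofactor of the de novo DNA methyltransferases, at least 73.9-fold lower with 5822.8 and 17.5. The LIF and Stat3 pathway differed less. Of 12 genes 2 were lower and none higher, and 1 was lower with the higher low level. Lifr, the LIF receptor, was at 6517.4 and 884.3, which is 7.37-fold lower, and the transcription factor Gbx2 was at least 5.81-fold lower. The shared receptor subunit Il6st and Stat3 itself were not called, with differences of -0.41 and 0.07.

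Epithelial adhesion genes were lower in 13 of 23, with none higher, a median of -2.32 and a single member, Spint2, detected on the granule array. With the higher low level 7 were lower. Cdh1, which encodes E-cadherin, read 9123.1 on the ES array, 25 on the granule array, 11668.9 on the HB9-GFP array and 894.7 on the Sox1 array, at least 116-fold lower in granule than in ES cells. The desmosomal genes Pkp2, Dsg2 and Dsp were at least 49.6-fold, 45.8-fold and 18.7-fold lower. Epcam, an epithelial adhesion molecule, was at 4560.7 and 157.1. Cdh2, which encodes N-cadherin, went the other way, at 68.5 on the ES array and 5405.5 on the granule array, at least 68.6-fold higher. Cdh1 and Cdh2 were the only one of 35 paralog pairs measured in which one gene was called lower and the other higher.

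Germline genes were detected in part on the ES array, 11 of 21, and 7 were lower in granule cells with none higher. Stra8, a retinoic acid-induced gene of meiotic entry, was at least 101-fold lower, with 7962.3 and 20.4. Rhox5 and Sycp3, a protein of the synaptonemal complex, were at least 26.9-fold and 26.2-fold lower. Among 12 DNA methylation enzymes and readers 4 were lower and none higher. Dnmt3b was 17.5-fold lower, with 6361.9 and 363.4. Dnmt3a was at 2142.8 and 65.4 by its brightest probe set, but its probe sets ranged from -4.77 to 1.74, so its direction depends on the probe set. Dnmt1, the maintenance enzyme, was not called, with a difference of -0.94. Polycomb and histone modifier genes had few calls. Of 24, Hdac9 and Prmt8 were higher, Cbx7, Mtf2 and Eed were lower, and the rest were not called, with a list median of -0.15. With the mean over probe sets 1 was higher and 2 lower. Of all genes measured 6.83% were called higher and 4.99% lower, so counts this small say little about the list. Ezh2, the catalytic subunit of Polycomb repressive complex 2, was at 6281.1 and 5697.9. Outside the naming rule, and chosen after its values were seen, Rest, the repressor of neuronal genes in other cells, was at 4814.7 on the ES array, 175 on the granule array, 4585.7 on the HB9-GFP array and 1546 on the Sox1 array, 27.5-fold lower in granule than in ES cells.

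Transcription factors of the granule lineage were called higher in 25 of 34, with a median difference of 3.80 and 31 detected on the granule array against 13 on the ES array. Zic1, Nfia, Insm1, Nfix, Nhlh2 and St18 led the list. Nfia, a factor of granule neuron maturation and of glia, was at 14141.8 against 47.3, at least 180-fold higher. Insm1, a zinc finger protein of newly born neurons, was at least 138-fold higher, with 10844.2 and 16.9. Nhlh2, a helix-loop-helix factor, was at least 104-fold higher, with 8171.4 and 25.6. Pax6, which granule precursors keep into differentiation, was at 6180.5 on the granule array, 217.8 on the ES array, 36.8 on the HB9-GFP array and 2996.7 on the Sox1 array, 28.4-fold higher in granule than in ES cells. Meis2 was the member called lower, at 610.5 on the ES array and 65.2 on the granule array, at least 7.75-fold, but its call ended with the mean over probe sets, with the probe set of median difference, without _s_at, _x_at or _a_at probe sets, with the higher low level and where every detected probe set had to reach 4-fold. Lmx1a was undetected on both arrays, and Eomes, a marker of unipolar brush cells, was not called. Of the leading factors, Nfia is also expressed by the astrocytes whose markers were high on this array.

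The hedgehog pathway, the mitogenic signal of granule precursors, was higher in 6 of 17 and lower in 1, with a median of 1.38. The 6 include Atoh1, a granule lineage factor that is counted on that list too. Only 2 were higher and none lower with the mean over probe sets, which had a median of 0.45. Where every detected probe set had to reach 4-fold, 3 were higher and 1 lower. Gpr161, a ciliary receptor that restrains the pathway, was at 934.3 against 88.1. Gas1, a co-receptor of Sonic hedgehog, was 7.25-fold higher, with 2309.3 and 318.4. Smo, the signal transducer, was 4.08-fold higher, just past the 4-fold limit. Sfrp1 was 4.35-fold higher by its brightest probe set, with probe sets from -0.19 to 2.97. The co-receptor Cdon was lower, at 918.5 on the ES array and 100 on the granule array. The target genes Gli1, Ptch1 and Hhip were not called. Gli1 was at 262.3 against 44.1, Ptch1 at 7626 against 3797 and Hhip at 203.9 against 5. The ES signals of Gli1 and Hhip lay below the low level, so their differences are only bounds. With a low level of 1 log2 unit lower, or with none, 8 genes of the list were higher and 1 lower. Shh itself was at 160.3 against 68.

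Migration and adhesion genes of granule cells were higher in 21 of 31, with none lower and a median of 2.93. After Reln and Dcx came Dcc, the netrin receptor, at least 94.9-fold higher with 7475.4 and 8.2, Cdh2, the doublecortin-like kinase Dclk1, at least 62.6-fold, and the axonal adhesion molecule Cntn1, at least 44.1-fold. Bdnf was undetected on both arrays. Pafah1b1, known as Lis1, and Itgb1 were not called. Axon guidance genes were higher in 15 of 35 and lower in 1, with a median of 1.23. Averaging the probe sets left 5 higher and 1 lower, with a median of 0.27. The receptor Unc5c was at 3783.7 against 120.1, Sema6d at 4129 against 80.3, and Sema6a, a transmembrane semaphorin of granule cells, was at least 30.2-fold higher. Ntn1, the ligand of Dcc and Unc5c, was at least 21.9-fold higher, with 1725.2 and 30.6. The exception was Epha4, an ephrin receptor, 10.6-fold lower with 3078.2 and 291.3. Protocadherins and cadherins were higher in 9 of 27, among them Celsr2 at 2174.1 against 122 and Pcdh9, at least 13.2-fold. Cdh1 was the only one lower. A low level of 1 log2 unit lower gave 15 higher.

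Pan-neuronal genes were higher in 23 of 31, with none lower and a median of 3.41. Map2, the dendritic microtubule protein, was at least 94.6-fold higher, with 7448.4 and 38.2. Scg3, a secretory granule protein, was at least 90.6-fold higher. Stmn3 was 89.9-fold higher, with 14578.2 and 162.1, a fold measured on both sides. Rbfox3, which encodes the neuronal antigen NeuN, was at 11269.7 on the granule array, 278.6 on the ES array, 115 on the HB9-GFP array and 566.3 on the Sox1 array. It was 40.5-fold higher in granule than in ES cells by its brightest probe set, with probe sets from 1.98 to 5.34. Of the 31 genes 8 were not called. Among these were Eno2, Thy1 and Nefh, genes of mature or large neurons, with differences of 0.07, -0.31 and -1.18. Stmn2, a relative of Stmn3, was not called either, with 9839.9 in granule cells, 5260.3 in ES cells and a difference of 0.90.

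Neuronal RNA-binding and splicing genes were higher in 14 of 30 and lower in 2, and in 8 and 2 with the mean over probe sets. Celf2 was 36.2-fold higher, with 12406.6 and 342.9, and Elavl4 was at 4564.4 against 100.9. Nova1, a neuronal splicing factor, was at 2634.5 against 85.2, and Rbfox3, itself a splicing factor, stood on this list too. The genes called lower were Igf2bp1 and Lin28a, fetal RNA-binding proteins, at 2755.1 and 2006.4 on the ES array against 35.6 and 6.2. Both were high on the Sox1 array, at 6769.9 and 6055.7. Cytoskeleton and axon transport genes were higher in 14 of 29, with none lower, and in 9 with the mean over probe sets. They included the kinesins Kif5a, at 2694.7 against 127.5, and Kif21b, 14.8-fold higher. Tuba1a and Stmn1, which dividing cells share, had differences of 0.01 and -0.14.

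Synaptic vesicle and exocytosis genes were higher in 17 of 30, with none lower and a median of 2.26. Averaging the probe sets left 8 higher and a median of 1.20. Snap25, of the fusion complex, was at least 39.1-fold higher, with 3079.7 and 21.6. Syt11 was 24.1-fold higher, and Cplx2 and the active zone protein Pclo were at least 28.9-fold and 20.9-fold higher. Postsynaptic scaffold genes were higher in 5 of 25, with a median of 0.82, and led by Homer2 at 2610 against 100. That count was 3 with the mean over probe sets, 8 after centring on the reference genes and 10 with the lower low level. Camk2a, Shank1 and Nlgn1 were undetected on both arrays. Of 22 glutamate receptor genes 8 were higher. The AMPA receptor subunit Gria4 was at least 28.6-fold higher, with 2251.2 and 52.9, and the kainate receptor subunit Grik2 at least 20.9-fold. Of 15 GABA and glycine receptor genes 5 were higher, led by Glrb at 1753.7 against 154.8 and by Gabra4, at least 10.9-fold. Of 24 sodium and calcium channel genes 8 were higher, led by Cacna2d1, at least 37.7-fold. Of 21 genes of potassium and chloride transport 7 were higher and 1 lower. The A-type potassium channels Kcnd3 and Kcnd2 were at least 32.1-fold and 27.2-fold higher. No gene of the glutamate receptor, GABA and glycine receptor or sodium and calcium channel lists was called lower. With the mean over probe sets the higher counts were 5 for glutamate receptors, 3 for GABA and glycine receptors, 4 for sodium and calcium channels and 2 for potassium and chloride transport.

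Genes of maturing granule neurons were split, with 11 of 26 higher and 1 lower, or 6 and 1 with the mean over probe sets. Snap25, Diras2, Synpr, Slc17a6 and Cbln1 led those called higher. Slc17a6, the vesicular glutamate transporter 2, was at 1972.2 against 5.9. Cbln1, the synaptic organiser that parallel fibres release, was at 5099.4 on the granule array, 330.3 on the ES array, 732 on the HB9-GFP array and 861.6 on the Sox1 array, 15.4-fold higher in granule than in ES cells. Gabra6, the GABA-A receptor subunit of mature granule neurons, was undetected on every array, at 79.9 (granule), 1.9 (ES), 34.6 (HB9-GFP) and 14.8 (Sox1). Gabrd, Grin2c, Cbln3 and Slc17a7, the vesicular glutamate transporter 1, were undetected on both arrays, at 20.3, 5.2, 49.5 and 63.2 in granule cells. The NMDA receptor subunit of young neurons, Grin2b, was at least 4.45-fold higher, with 350.3 and 36.3, and Grin2a, which follows it in maturation, was undetected on both. Car2, which oligodendrocytes express too, was the gene called lower, 8.11-fold.

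**Figure D4:**
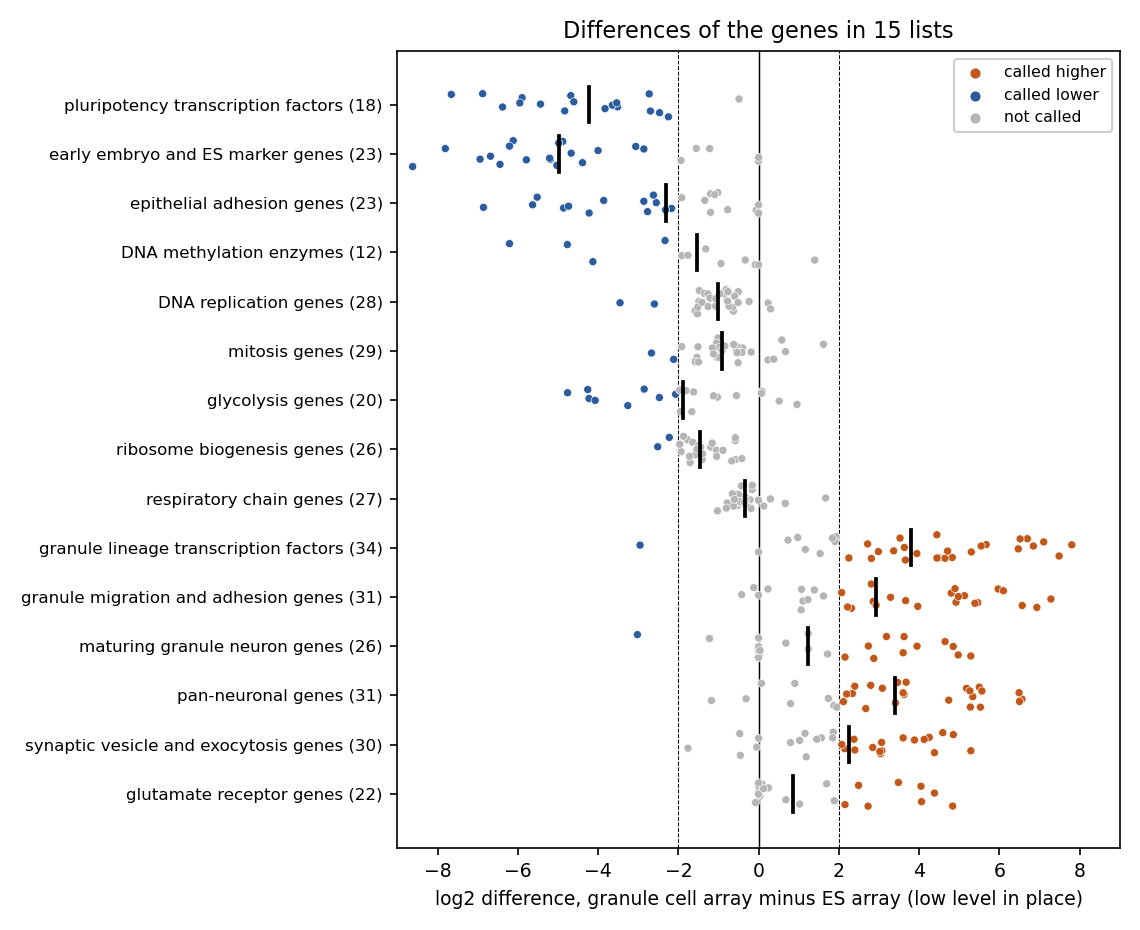
log2 differences, granule array minus ES array, of the genes in 15 lists, 1 point per gene and a bar at each list's median, with the number of genes measured in brackets; dashed lines mark 4-fold. Pluripotency and early embryo lists had medians of -4.22 and -4.98, granule lineage factors and pan-neuronal genes 3.80 and 3.41, and replication, mitosis and respiratory chain genes lay mostly within 4-fold of 0.

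Genes of cell division were called lower about as often as the 4.99% of all genes measured. All 29 mitosis genes were detected on both arrays, and 2 were called lower, Hmmr and Ndc80, 6.36-fold and 4.34-fold. The lower count was 4 with the mean over probe sets and 1 after centring on the reference genes, which also gave 1 higher. The median difference was -0.91, and 24 of 29 were below 0. That centring moved the median to -0.40. Mki67, the antigen of cycling cells, was higher in signal on the granule array, at 8678.5 against 5808.6, as were Ccna2, Cenpf, Cenpa and Nuf2, none of them called. Top2a, the topoisomerase of dividing cells, was at 6749.8 against 9902.3 and Cdk1 at 3652.5 against 7381.7. Of 28 DNA replication genes 2 were lower and none higher, with a median of -1.02. Orc1, of the origin recognition complex, was at 1248.8 and 114, and the polymerase subunit Pole2 was 6.05-fold lower. Pcna, the sliding clamp, was at 25027.9 and 14266.9, and Mcm6, of the replicative helicase, at 7573.4 and 5341.6.

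Regulators of entry into the cycle were called in both directions. Of 23 G1 cyclins, kinases and inhibitors 4 were higher and 3 lower. After centring on the reference genes 6 were higher and 1 lower. Ccnd2, the D-type cyclin of granule precursors, was at 14613.2 on the granule array, 107.5 on the ES array, 769.4 on the HB9-GFP array and 11250.1 on the Sox1 array. Ccnd1 was at 1901.8 and 572.7 and was not called. Cdk6 was 5.98-fold higher. The inhibitors Cdkn2c and Cdkn1b, which mark cells leaving the cycle, were 7.65-fold and 6.96-fold higher. Cdkn1a, the p53-induced inhibitor, was 9.67-fold lower, with 6144.2 and 635.3, and Ccne1 and Ccnd3 were 4.51-fold and 4.24-fold lower. The differences of Ccne1 and Ccnd3 were -2.17 and -2.08, and after that centring -1.66 and -1.57, below the 4-fold limit.

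Stretches upstream of gene starts were taken for genes of these groups, to show the letters by which such promoters are recognised. They come from RefSeq windows on GRCm38.p6 that run from 250 bases before to 50 bases after each start. Windows were matched for 14368 of the 18193 genes, 18009 windows in all, and 8 motifs were searched on both strands. A match is a description of the letters and not a site in use. The 3 cell cycle genes below were chosen after their values were seen. E2F letters, TTTGGCGC, TTTCCCGC, TTTCGCGC or TTTGCCGC, which may overlap each other, stood in 3.2% of all windows and in 39.3% of those of replication genes, 11 of 28. They are in capitals in Mcm5 (chr8:75109336-75109387, plus strand) and Mcm6 (chr1:128359725-128359835, minus strand). CCAAT stood in 37.4% of all windows and in 77.8% of those of mitosis genes, 21 of 27, and is in capitals in Ccnb2 (chr9:70421555-70421661, minus strand). Each stretch is upstream of the start and written 5′ to 3′ on the gene's strand.
Mcm5: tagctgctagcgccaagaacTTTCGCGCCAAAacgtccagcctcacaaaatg
Mcm6: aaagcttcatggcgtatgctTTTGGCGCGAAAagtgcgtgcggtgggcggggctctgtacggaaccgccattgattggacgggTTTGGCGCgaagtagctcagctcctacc
Ccnb2: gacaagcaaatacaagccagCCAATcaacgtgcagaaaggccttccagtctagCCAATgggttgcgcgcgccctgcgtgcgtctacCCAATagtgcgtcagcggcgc

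Mcm5 and Mcm6, whose stretches hold E2F letters, had differences of -0.63 and -0.50, and Ccnb2, with 3 CCAAT boxes in its stretch, -1.05, none of them called.

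For the genes that did pass the size rule, the octamer ATGCAAAT, read by Pou5f1 and its relatives, stood in 1.39% of all windows, in 1.42% of those of genes called lower and in 2.18% of those of genes called higher. TTCAGCACC, the left part of the element that Rest binds, stood in 0.416% of all windows, 75 in number, in 0.825% of those of genes called higher, 11, and in 0.219% of those of genes called lower, 2. GGACAGCGC, the right part of that element, stood in 0.6% of all windows, 108 in number, in 0.825% of those of genes called higher, 11, and in 0.874% of those of genes called lower, 8, so it was not more frequent among the genes called higher than among those called lower. The other motifs were TGACGTCA, read by Creb factors, CAGATG or CAGCTG, read by Atoh1 and Neurod1, and the TATA box TATAAA. They stood in 2.5%, 27.5% and 9.76% of all windows, in 2.1%, 29.1% and 8.63% of those of genes called higher, and in 2.51%, 27% and 8.85% of those of genes called lower. These windows are short, and Rest elements often lie outside them. The octamer is in capitals in Zfp42 (chr8:43307168-43307215, minus strand), on the opposite strand, and the Rest letters in Nsg2 (chr11:32000479-32000527, plus strand), a neuronal endosomal protein, and Celsr3 (chr9:108825898-108825946, plus strand), an adhesion receptor of growing axons. They were chosen after the search and after their values were seen.
Zfp42: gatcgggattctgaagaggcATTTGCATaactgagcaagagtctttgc
Nsg2: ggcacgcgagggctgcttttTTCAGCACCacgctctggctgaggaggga
Celsr3: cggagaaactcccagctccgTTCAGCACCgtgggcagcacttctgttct

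Zfp42 was at 15912.5 on the ES array and 12 on the granule array. Nsg2 was at 64.8 and 3730.3, at least 47.4-fold higher in granule cells, and Celsr3 at 192.6 and 973.7, which is 5.06-fold higher.

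Glycolysis genes were lower in 8 of 20, with none higher and a median of -1.88. Without _s_at, _x_at or _a_at probe sets, which left 13 genes measured, 5 were lower. After centring on the reference genes 6 of 20 were lower. The glucose transporter Slc2a1 was lower, with 13892 and 726. Slc2a3, often called the neuronal glucose transporter, was 18.7-fold lower, at 20052.7 on the ES array, 1071 on the granule array, 19285.7 on the HB9-GFP array and 11865 on the Sox1 array. Pdk1, a kinase that inhibits pyruvate dehydrogenase, was 27.1-fold lower, with 9419.4 and 347.4. Pfkp and Hk2, of the committed early steps, were 16.8-fold and 9.58-fold lower. Aldoc, an aldolase that astrocytes and Purkinje cells express, was not called, at 1693.7 and 3287.7. Of 27 respiratory chain genes none was called, and all were detected on both arrays. Their median was -0.35, and 0.16 after centring on the reference genes, so its sign depends on the scaling.

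Enzymes of serine, glycine and threonine metabolism were lower in 6 of 15 and higher in 1. Cth, which makes cysteine, was at 5875.4 and 144.6. Asns, asparagine synthetase, was at 9719.6 and 1349.3. The folate cycle enzymes Shmt1 and Mthfd1 were 7.11-fold and 6.22-fold lower. The gene called higher, 4.33-fold, was Aldh1l1, which is also an astrocyte marker, and none was with the mean over probe sets. Phgdh and Psat1, the first enzymes of serine synthesis, had differences of 0.16 and -0.23. All 26 ribosome biogenesis genes were below 0, with a median of -1.45 that was -0.94 after centring on the reference genes. Of these, Utp20 and Nop2 were called lower, 5.71-fold and 4.68-fold, while 1 was after that centring and 4 after quantile normalization. Cholesterol synthesis genes had a median of 0.08, and none of 19 was called.

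Immediate early and heat shock genes were higher in 10 of 26 and lower in 1, and none was lower after centring on the reference genes. Egr2, Nr4a2 and Egr3, transcription factors induced by activity or stress within minutes, were at least 34.4-fold, 30.6-fold and 25.4-fold higher. Fos was at 12716.3 on the granule array, 853.8 on the ES array, 3609.5 on the HB9-GFP array and 12435.5 on the Sox1 array. Jun was at 2804.2 against 115.1. Npas4 and Egr4, which neuronal activity induces, and Arc were not called, and Npas4 was undetected on both arrays. The labels used here give no dissociation step for these cells. Imprinted genes were higher in 7 of 24 and lower in 1, in 3 and 1 with the mean over probe sets and in 8 and 3 after quantile normalization. Nap1l5 was at least 19.3-fold higher, Nnat 17.3-fold, and Ndn was at 11368.3 against 950.3. Phlda2, a placental growth repressor, was at least 4.25-fold lower.

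Hox genes, which set position along the body axis, were almost all undetected. None of 25 was detected on the granule array and 1, Hoxd1, on the ES array. Among 21 factors of forebrain and spinal patterning the granule array detected 6, the ES array detected 2, and 3 were higher, Nkx2-2, Olig2 and Lbx1. Nkx2-2 and Olig2 are also factors of oligodendrocyte precursors, whose markers were high on the granule array.

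Paralog pairs showed where relatives differed. In 11 of 35 pairs neither gene was called. The second member, mostly the neuronal form, was higher in 13 pairs, and the first, mostly the common form, was lower in 10. For subunits of the BAF chromatin remodelling complex, Actl6b was at 534.4 against 41.9, at least 6.79-fold higher, while Actl6a was not called, at 5113.1 against 8034.1. For splicing repressors, Ptbp2 was 6.96-fold higher and Ptbp1 had a difference of -0.60. Tubb3 was 10.6-fold higher and Tubb5 had a difference of 0.25. Kif5c was 9.63-fold higher and Kif5b had a difference of -0.60. Klc1 and Elavl3 were 14.4-fold and 8.47-fold higher, against 0.28 for Klc4 and -0.21 for Elavl1 on the log2 scale. Nap1l3, Prmt8 and Napb were higher and their partners Nap1l1, Prmt1 and Napa were not called, and Rbfox2 and Ccnd1 were not called beside Rbfox3 and Ccnd2. In the other direction, Hk2, Aldoa and Ldha were lower, while Hk1, Aldoc and Ldhb were not called. Cbx7, Lin28a, Sall4 and Syngr2 were lower beside Cbx6, Lin28b, Sall3 and Syngr1, which were not called. Syp and Cask were higher, and Sypl and Caskin1 were not called. In 2 pairs both genes were lower by their brightest probe sets (Slc2a1 with Slc2a3, Dnmt3b with Dnmt3a), though the direction of Dnmt3a depends on the probe set as given above, and in 1 both were higher (Gpm6b with Gpm6a).

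**Figure D5:**
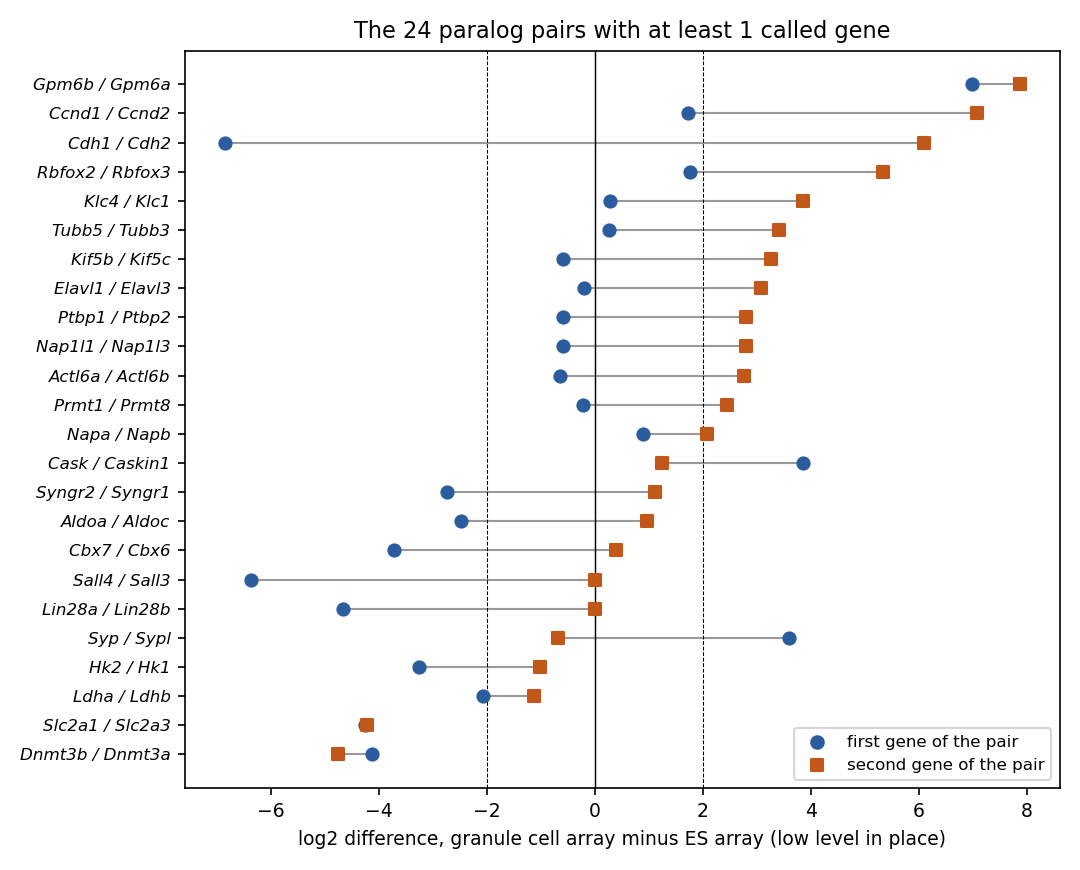
log2 differences, granule array minus ES array, of both genes of the 24 paralog pairs with at least 1 called gene; circles mark the first gene named and squares the second, joined by a line, and dashed lines mark 4-fold. Cdh1 and Cdh2 lay beyond opposite dashed lines at -6.86 and 6.10, while in most other pairs only 1 of the genes was beyond a dashed line.

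Probe sets of the same gene gave a measure of spread within a gene. Their pooled SD, with the low level in place, was 0.74 log2 units over 4609 genes with several detected probe sets. With 1 array a side it does not measure error between arrays. Several probe sets were detected for 885 of the called genes. In 857 of these every detected probe set differed in the same direction, and in 394 every one reached 4-fold. In 5 genes probe sets were called in opposite directions. Riok3, an atypical kinase, had probe sets at 267.1 and 2777.7 on the ES and granule arrays and at 2969.4 and 709.6. Ap1s2, a subunit of the clathrin adaptor, had a probe set at 1895.7 and 345.4 beside a pair that were higher, and Kantr and Mtmr7 were split in the same way.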

How the data were processed

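RNA of 2 samples, ES cells and granule cells of postnatal day 6, was compared; the other 2 arrays of the study entered the choice of probe sets and the low level. The deposited table holds linear intensities of 45101 probe sets. Per the submitters' processing notes GCRMA was used (no version given), but every array had a 2% trimmed mean of 500.0 on the linear scale, so how these deposited intensities were made is uncertain, and equal scaling hides differences in total RNA per cell. Annotation gave 1 symbol to 34945 probe sets, several to 932 and none to 9224, control probe sets among the last. A gene was represented by the probe set with the highest mean log2 value over the 4 arrays. Calls used the size rule of the report; with 1 array a side no test was made, and precision is limited by the number of arrays. The code was tested on simulated data. Python 3.11.15 and pandas 2.3.3 were used.

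The members, the gene lists and the rules were chosen with earlier results of these data known. Named genes are the 15 largest differences in each direction, up to 6 called genes per list with the largest differences, uncalled genes where a sentence is about them, the paralog pairs with a call, 10 genes that define the labels, and up to 4 genes with opposed probe sets. Meis2, Epha4, Ccnd3, Grin2b, Car2, Aldh1l1, Phlda2 and Rest fall outside it and were chosen after their values were seen. Alternatives changed the low level, the scaling, the choice of probe set, the size and detection rules; 1 of 14, the probe set with the highest mean of linear signals, was added after seeing the data. No protein sequences were used here.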

Additional observations from a re-analysis of the deposited data

Results flagged for a closer look

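Probe sets without a gene symbol entered no comparison above, yet many passed the size rule. Of 9160, leaving out control probe sets, 297 were higher on the granule array (3.24%) and 158 were lower (1.72%). The probe set with the largest difference read 33.3 on the ES array and 8342 on the granule array. In the other direction a probe set read 12358.9 and 79.9, and a second, with 5756.7 and 80, was next to it in the array's numbering. Their genes are unnamed here.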

How the results depend on the processing

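Among the 359 list and leading genes no called difference changed sign under the 14 alternatives, of which the one without _s_at, _x_at or _a_at probe sets could measure 338 of them. No list median past the size rule changed sign. Over genes and alternatives, 804 values moved by more than the pooled SD of 0.74 between probe sets of a gene and 4201 did not, and of the medians of lists 47 moved and 583 did not. The size rules, the detection rule and the rule that all detected probe sets pass alter only calls. The centrings shift values by less than that SD. Under these no value could move so far and no called difference could change sign, so they add to the unmoved counts by construction. The 4 lead medians kept their sign in all. The granule lineage median, 3.80, was 2.88 with a higher low level, 2.98 with the mean over probe sets and 2.98 with the median probe set; the pluripotency median, -4.22, was -5.80 with no low level and -3.13 with the mean over probe sets. Against 1243 higher and 907 lower genes, a size rule of 1 log2 unit gave 2799 and 2750 and one of 3 units 573 and 339, fewer or more by construction. Centring on the reference genes gave 580 lower, and the mean over probe sets 781 higher. The share of higher calls, 57.8%, was 55.1% with a lower or no low level, 52.5% after quantile normalization, 75.7% and 61.5% after centring on reference genes and on genes detected on both arrays (which shifted all differences by 0.51 and 0.11), 52.3% with the mean over probe sets, 52.6% with the median probe set, 50.4% and 62.8% with the smaller and larger size rule, and 55.6% where all detected probe sets had to pass; apart from those set by construction, the cause was not tested. No paired analysis was possible because each group has 1 array. Signals near the low level limit what can be said of dim genes.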

Other observations

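Among differences measured on both arrays, outside the naming rule and chosen after their values were seen, several genes that no list held stood out. Nbea, a protein of membrane traffic at the synapse, was 35.9-fold higher in granule cells, with 8430.2 and 234.6. Nrep, a protein of neuronal regeneration, was at 15907 on the granule array, 461.4 on the ES array, 679.4 on the HB9-GFP array and 13176.5 on the Sox1 array, so the Sox1 array carried it near the granule level. Pfn2, the neuronal profilin, had the same order, at 16863.3, 554.1, 1469.9 and 16388.5. Rpgrip1, known as a protein of photoreceptor cilia, was at 11942.5 against 335.3, by the only detected one of its 4 probe sets.

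Towards ES cells, Gsta4, a glutathione transferase, was 53.1-fold lower in granule cells, with 18487.9 and 348.2. Chchd10, a mitochondrial protein, was 33.2-fold lower, with 22664.7 and 682.6. Eif4ebp1, an inhibitor of translation initiation, was 33.4-fold lower, with 12618.8 and 378.1. Mtm1, a lipid phosphatase, was 85.7-fold lower by its brightest probe set, with probe sets from -6.42 to -0.67.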
